A study of Rattus norvegicus with 5 samples.

Results

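The protein tyrosine phosphatase genes of the rat cornea were followed in 5 libraries, each from the cornea of a male Sprague-Dawley rat aged 6 months. Of these, 2 came from transgenic P1 hMR rats, which overexpress human NR3C2, the gene of the mineralocorticoid receptor, and 3 came from wild-type rats of the same strain, sex and age. The labels do not explain P1 or say what drives the transgene. Nothing says whether a library is 1 rat or 1 eye, so p-values measure the spread between libraries. The genes were chosen by symbol: every gene whose name starts with Ptpn or Ptpr and ends in at most 3 further letters or digits, apart from Ptprc. That gave 38 of 20339 genes, of which 17 belong to the non-receptor phosphatase family and 20 to the receptor-type family. The remaining 1, Ptprcap, is the CD45-associated protein and no phosphatase. Family membership goes by name and class, and does not mean that each protein is an active phosphatase. The set was assembled around Ptpn6 because its level differed in this genotype comparison, so the genotype values of Ptpn6 and of its isoform rows are given as a description with no test.

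Protein tyrosine phosphatases remove phosphate from tyrosine residues and so oppose tyrosine kinases. The receptor types span the membrane, many with adhesion-molecule domains outside the cell, while the non-receptor types are steered by domains that dock on other proteins. Ptpn6 encodes SHP-1, whose SH2 domains bind inhibitory receptors of blood cells and damp their signals; it is also made in epithelia. In human and mouse the gene has an upstream promoter used in epithelia and a downstream promoter used in blood cells, which give proteins that differ at the N-terminus.

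Gene-table totals lay between 20874010 and 30449675 expected counts per library. Human NR3C2 had 1094 and 1146 counts in transgenic corneas 1 and 2, and 0 counts in each wild-type cornea. Krt12, the keratin that defines the corneal epithelium, held 3.33% to 4.49% of the counts. Pigment-cell markers summed to 94.5 and 173 CPM (counts scaled to a common library size) in transgenic corneas 1 and 2, against 53.8, 13.2 and 40.8 CPM in the wild-type corneas, and 9 of 9 tested markers were higher in both transgenic corneas than in every wild-type cornea, as were 12.0% of all genes. The same held for 7 of 11 keratocyte markers, 5 of 10 Schwann cell and nerve markers and 2 of 8 vascular markers. The part of these tissue markers in the values below was not tested. In whole tissue, fewer cells of a type and less RNA per cell cannot be told apart.

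Ptpn6, the SHP-1 gene, was lower in both transgenic corneas. It had 751 and 792 counts, or 29.0 and 25.2 CPM, in transgenic corneas 1 and 2, and 1265, 894 and 996 counts, or 45.7, 43.7 and 45.4 CPM, in wild-type corneas 1 to 3. The groups did not overlap, and the wild-type values lay close together. The mean was 27.1 ± 2.65 CPM in transgenic corneas (SD, n = 2) and 44.9 ± 1.03 CPM in wild-type corneas (SD, n = 3), a ratio of 0.603. The log2 fold change was -0.73 ± 0.11 (SE) and lay between -0.83 and -0.63 with each library left out in turn. With no transcript length for these rows, levels were compared across libraries and not between genes.

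The RefSeq start of Ptpn6 lies on the minus strand of chromosome 4 in build GRCr8, which is not the build rn6 that the submitters name, and no other RefSeq gene there overlaps it. The 250 bases before that start (chr4:159237070-159237319, minus strand) are shown because the choice of start separates the known forms of the gene. Capitals mark GGGCGG, the GC box, on either strand, without overlap between matches.

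Ptpn6 promoter: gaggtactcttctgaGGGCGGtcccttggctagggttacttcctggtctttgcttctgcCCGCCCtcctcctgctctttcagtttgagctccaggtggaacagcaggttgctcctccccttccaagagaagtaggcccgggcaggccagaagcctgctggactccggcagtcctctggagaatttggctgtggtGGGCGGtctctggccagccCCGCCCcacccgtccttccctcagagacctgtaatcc

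The GC box occurred 4 times, and 30.5% of 33469 RefSeq windows of the same length held at least 1 match. How many windows held as many as 4 was not counted. TGTTCT, a hexamer bound by steroid receptors such as the mineralocorticoid receptor, had 0 matches on either strand, against 17.5% of windows with a match. GAGGAA, the box of the blood-cell factor PU.1, also had 0 matches, against 23.3% of windows. Only exact hexamers were counted, so other forms of these binding sites were not looked for. GC made up 61.6% of the bases. The table holds 1 start per gene, so the other promoter was not used here.

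The Ptpn6 count was divided differently among isoform rows in the genotypes. The isoform table has 3 rows named Ptpn6, and together they held 30.8% and 47.0% of the gene count in transgenic corneas 1 and 2, against 17.6%, 15.1% and 10.5% in wild-type corneas 1 to 3. The rest of the count is in rows without a gene name. Among 16879 unnamed rows above 0, exactly 1 pair, ENSRNOT00000117641 and ENSRNOT00000102617, added up to the rest in all 5 libraries within 0.05 counts, and no unnamed row did so alone. The pair was found after the values were seen and is a match of sums; neither the isoform table nor the reference table pairs these rows with a gene.

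ENSRNOT00000117641 carried most of the count in wild-type corneas and little of it in transgenic ones. On the CPM scale of the isoform table, which is scaled apart from the gene table, it had 3.36 and 1.57 CPM in transgenic corneas 1 and 2, against 33.9, 33.3 and 38.3 CPM in wild-type corneas 1 to 3. As a share of the Ptpn6 gene count this was 12.2% (95% exact binomial interval 9.99% to 14.8%) and 6.59% (4.94% to 8.52%) in transgenic corneas, and 78.4% (76.0% to 80.7%), 80.7% (78.0% to 83.3%) and 89.5% (87.4% to 91.3%) in wild-type corneas. The groups stood far apart, with a mean share of 9.40% ± 3.97 in transgenic corneas (SD, n = 2) and 82.9% ± 5.83 in wild-type corneas (SD, n = 3). The log2 fold change of the row was -3.84 ± 0.37 (SE), and with each library left out it stayed between -4.48 and -3.38. The intervals cover counting error only, and not the division of shared reads among isoforms.

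ENSRNOT00000102617 went the other way. It had 15.7 and 11.1 CPM in transgenic corneas 1 and 2, against 1.72, 1.70 and 0 CPM in wild-type corneas 1 to 3. Its share of the gene count was 57.0% and 46.4% in transgenic corneas, and 3.98%, 4.13% and 0% in wild-type corneas. For the 0 in wild-type cornea 3, counting error alone would allow up to 0.301% by the floor of 3 counts (95% exact binomial upper limit 0.370%). Neither limit covers the division of shared reads among isoforms, so the true share may be higher. The log2 fold change was 3.54 ± 1.27 (SE), between 2.96 and 3.98 with each library left out. The rows named Ptpn6 summed to 8.48 and 11.2 CPM in transgenic corneas and to 7.61, 6.24 and 4.51 CPM in wild-type corneas, so they too were higher in both transgenic corneas. Of the 3 named rows, ENSRNOT00000065416 held most of this sum in each library, with 7.57 and 11.2 CPM in transgenic corneas and 7.61, 4.80 and 3.91 CPM in wild-type corneas, which overlap. ENSRNOT00000079947 had 0.904 and 0 CPM in transgenic corneas and 0, 1.44 and 0.597 CPM in wild-type corneas, and ENSRNOT00000082739 was listed at 0 throughout.

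All rows of Ptpn6 other than ENSRNOT00000117641 thus summed to 24.1 and 22.3 CPM in transgenic corneas 1 and 2, against 9.33, 7.95 and 4.51 CPM in wild-type corneas 1 to 3. The mean of this sum was 23.2 ± 1.28 CPM in transgenic corneas (SD, n = 2) and 7.26 ± 2.48 CPM in wild-type corneas (SD, n = 3), a ratio of 3.20. The mean difference between transgenic and wild-type corneas was -32.7 CPM for ENSRNOT00000117641 and 15.96 CPM for the other rows together. Which of the rows starts at the epithelial or at the blood-cell promoter is not given in the files or the reference table, so neither row is called by either form.

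**Figure D1:**
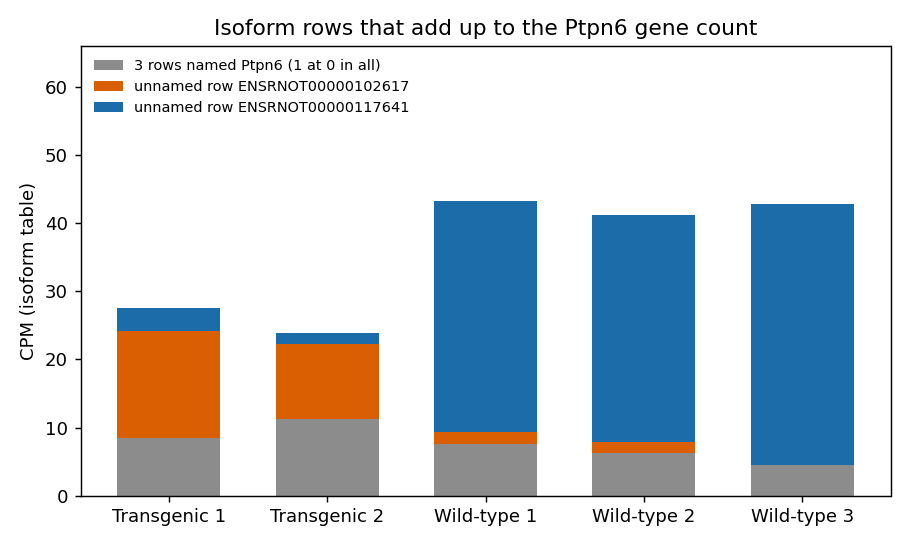
Stacked bars give the CPM of the isoform rows that add up to the Ptpn6 gene count, 1 bar per library, transgenic corneas left of wild-type corneas. The row ENSRNOT00000117641 fills 33.3 to 38.3 CPM of each wild-type bar and 1.57 to 3.36 CPM of each transgenic bar, while ENSRNOT00000102617 reaches 11.1 to 15.7 CPM in transgenic corneas and at most 1.72 CPM in wild-type corneas.

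The place of both rows among all isoform rows is given as a description only, since the gene was chosen for its difference and the pair was found after its values were seen. Of 11692 rows with a wild-type mean of at least 10 CPM, 10 had a log2 fold change at or below that of ENSRNOT00000117641, itself included. Of 11751 rows with a transgenic mean of at least 10 CPM, 6 were at or above that of ENSRNOT00000102617, itself included. Among the other phosphatase genes, 34 rows of 21 genes, named or matched by sum, had a group mean of at least 10 CPM. Their log2 fold changes ran from -0.78, for ENSRNOT00000077943 of Ptprj, to 1.17, for ENSRNOT00000073991 of Ptprs. The unnamed count of Ptprd, Ptpre, Ptprg and Ptprs equalled no unnamed row or pair, and that of Ptprn equalled several pairs. Those rows are therefore not in the range. For Ptprs that count held 66.4% and 71.3% of the gene count in transgenic corneas 1 and 2. In wild-type corneas 1 to 3 it held 67.6%, 80.2% and 73.3%.

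Isoform rows also moved within a genotype. Among wild-type corneas ENSRNOT00000073991 of Ptprs ran from 0 to 18.4 CPM. ENSRNOT00000049832 of Ptprj ran from 0 to 17.4 CPM and ENSRNOT00000076106 of Ptpn3 from 0 to 9.75 CPM among wild-type corneas, and ENSRNOT00000087081 of Ptpn13 had 14.2 and 0 CPM in transgenic corneas. ENSRNOT00000117641 ran from 1.57 to 3.36 CPM among transgenic corneas and from 33.3 to 38.3 CPM among wild-type corneas. Of 27110 isoform rows, 11.2% had both transgenic corneas above the wild-type range and 9.53% had both below it. Of 64 tested rows named for the phosphatase genes or matched to them by sum, the counts were 7 (10.9%) and 3 (4.69%). The 7 include ENSRNOT00000102617 and the 3 include ENSRNOT00000117641, both matched to Ptpn6, whose difference chose the set. The edgeR test, adjusted over all isoform rows, called 0 rows of any gene (0%). DESeq2 called 209 (0.771%), none of them a row named for, or matched by sum to, a phosphatase gene other than Ptpn6. By edgeR 1080 rows (3.98%) had an unadjusted p under 0.05. Apart from rows of Ptpn6, ENSRNOT00000079999 of Ptprs was among these 1080. It had 18.7 and 16.1 CPM in transgenic corneas, against 22.0, 23.0 and 31.0 CPM in wild-type corneas.

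**Figure D2:**
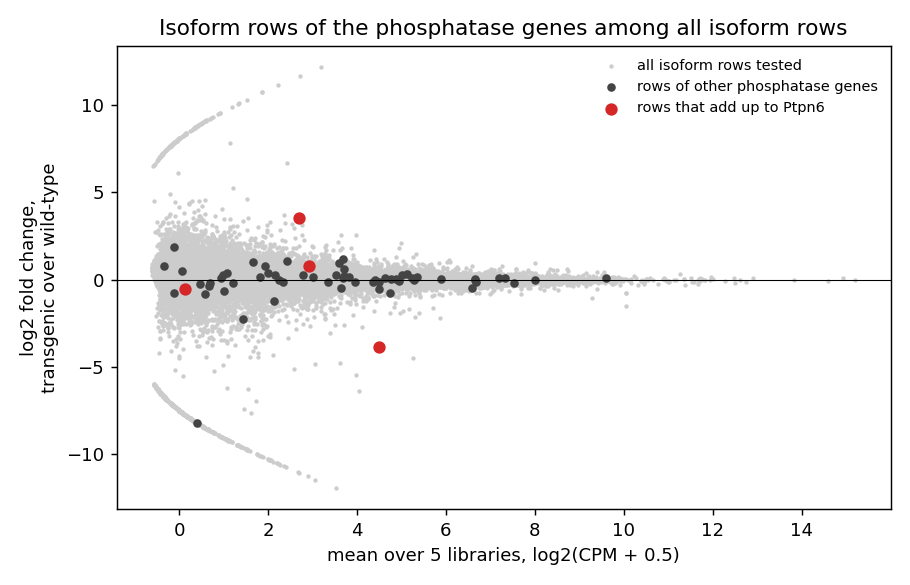
Each point is an isoform row, with its mean log2(CPM + 0.5) over the 5 libraries on the x axis and its log2 fold change, transgenic over wild-type, on the y axis. Rows that add up to Ptpn6 are red. Rows named for other phosphatase genes, or matched to them by sum, are dark grey. ENSRNOT00000117641 at -3.84 and ENSRNOT00000102617 at 3.54 stand outside the band of rows of like level. The outer arcs are rows at 0 in a whole group. The dark point there is ENSRNOT00000106350, matched to Ptpn12 by sum. It had 0 CPM in both transgenic corneas and at most 2.95 CPM in wild-type corneas.

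Leukocyte markers overlapped between the genotypes. Ptprc, the CD45 phosphatase that defines leukocytes, had 1.54 and 2.64 CPM in transgenic corneas 1 and 2, against 2.06, 1.66 and 2.32 CPM in the wild-type corneas, and the groups overlapped. The 24 leukocyte markers summed to 157 and 209.8 CPM in transgenic corneas 1 and 2 and to 183, 177 and 177 CPM in wild-type corneas. Transgenic cornea 1 was thus below every wild-type cornea and transgenic cornea 2 above every one. Of 22 tested markers 14 were higher and 8 lower (median log2 fold change 0.13). None had both transgenic values outside the wild-type range, beside 12.0% of all genes above it and 10.7% below it. The part of leukocytes in the Ptpn6 values was not tested. The lymphocyte markers Cd3e and Cd79a were at 0.108 CPM or less in all libraries. Relative to the median marker, log2 Ptpn6 was 4.13 and 3.16 in transgenic corneas and 4.47, 4.60 and 4.56 in wild-type corneas, a difference of -0.90 between the means; the offset itself compares different genes and only its change across libraries is read.

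Of 17 tested corneal epithelium markers 5 were higher and 12 lower (median log2 fold change -0.06), and 3 had both transgenic values below the wild-type range, beside 10.7% of all genes. Relative to their median, log2 Ptpn6 was -4.86 and -4.99 in transgenic corneas and -4.21, -4.37 and -4.18 in wild-type corneas, a difference of -0.67. The groups did not overlap on this scale, and on the leukocyte scale they did not overlap either.

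Genes beside Ptpn6 on the chromosome had smaller log2 fold changes. Phb2, a prohibitin gene, had 72.6 and 69.2 CPM in transgenic corneas 1 and 2, against 72.3, 82.0 and 66.8 CPM in wild-type corneas 1 to 3. Over the 4 nearest protein-coding genes with a row on each side, in GRCr8 order, the log2 fold change ran from -0.18 to 0.33. Of these 8 genes, Lpcat3 and Cdca3 were lower in both transgenic corneas, as were 10.7% of all genes. Lpcat3, a lysophospholipid acyltransferase gene, had 63.6 and 65.1 CPM in transgenic corneas, against 70.5, 67.4 and 68.6 CPM in wild-type corneas. Cdca3, a cell division gene, had 23.0 and 18.9 CPM in transgenic corneas, against 24.6, 23.1 and 23.4 CPM in wild-type corneas. Its value in transgenic cornea 1 was only just below the wild-type range. The other neighbours overlapped between genotypes. None of the 8 passed the edgeR test with adjustment over all genes (lowest adjusted p = 0.835, 0 with an unadjusted p under 0.05), and DESeq2 called 0.

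Receptors that dock SHP-1 include inhibitory receptors of leukocytes. Of 24 such genes with a row, 11 were tested, 6 higher and 5 lower (median log2 fold change 0.03, and -0.01 for all genes). None passed the edgeR test over all genes (lowest adjusted p = 0.802, 0 with an unadjusted p under 0.05, 0 by DESeq2). The 3 of smallest p were Ceacam1, Clec12a and Fcgr2b. Ceacam1, an adhesion receptor of epithelia and leukocytes, had 0.771 and 0.987 CPM in transgenic corneas and 1.83, 1.17 and 1.82 CPM in wild-type corneas (log2 fold change -0.87 ± 0.41). Fcgr2b, the inhibitory receptor for immunoglobulin G, had 0.617 and 0.732 CPM in transgenic corneas and 1.66, 1.13 and 1.00 CPM in wild-type corneas. Both were lower in both transgenic corneas, at 16 to 50.8 counts per library. Of the 11 tested genes, 2 had both transgenic values below the wild-type range and 0 above it, beside 10.7% and 12.0% of all genes. Clec12a, an inhibitory lectin of myeloid cells, had 0.386 and 0.955 CPM in transgenic corneas, against 0.253, 0.391 and 0.0911 CPM in wild-type corneas, and overlapped.

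The signalling partners of SHP-1 and SHP-2 are kinases, adaptors and STAT factors. Of 25 tested genes 9 were higher and 16 lower (median log2 fold change -0.01), and none passed the edgeR test over all genes (lowest adjusted p = 0.839, 0 with an unadjusted p under 0.05, 0 by DESeq2). The 3 of smallest p were Gab2, Lyn and Src. Gab2, a scaffold that binds SHP-2, had 4.90 and 5.28 CPM in transgenic corneas, against 4.48, 3.62 and 3.64 CPM in wild-type corneas. Lyn, a kinase of the Src family, had 92.1 and 71.6 CPM in transgenic corneas and 137, 144 and 73.5 CPM in wild-type corneas. Src, the founding Src-family kinase, had 219 and 187 CPM in transgenic corneas and 224, 233 and 214 CPM in wild-type corneas. Lyn and Src overlapped between genotypes, and Gab2 did not. Of the 25 tested genes, 1 had both transgenic values above the wild-type range and 2 below it, beside 12.0% and 10.7% of all genes.

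No phosphatase gene passed the edgeR test. Of the 38 genes, 31 passed the filter on low counts, 5 had too few counts and Ptpn5 and Ptprq were listed at 0 throughout. The edgeR test, adjusted over 13304 genes, called 0.00752% of all genes and 0 of the 31. Leaving aside Ptpn6, whose difference chose the set, Ptpru had an unadjusted p under 0.05, beside 6.32% of all genes, and DESeq2 called none, beside 0.391% of all genes. In 4 tested members (12.9%) both transgenic corneas were above the wild-type range, beside 12.0% of all genes, and in 2 (6.45%), Ptpn3 and Ptpn6 itself, both were below it, beside 10.7% of all genes. Without TMM scaling 5 were above, and the 2 below were Ptpn6 and Ptpn11 in place of Ptpn3. The log2 fold change was within 0.25 of 0 in 22 of the 31. Apart from Ptpn6 it ran from -0.50 in Ptpro to 0.89 in Ptpru.

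**Figure D3:**
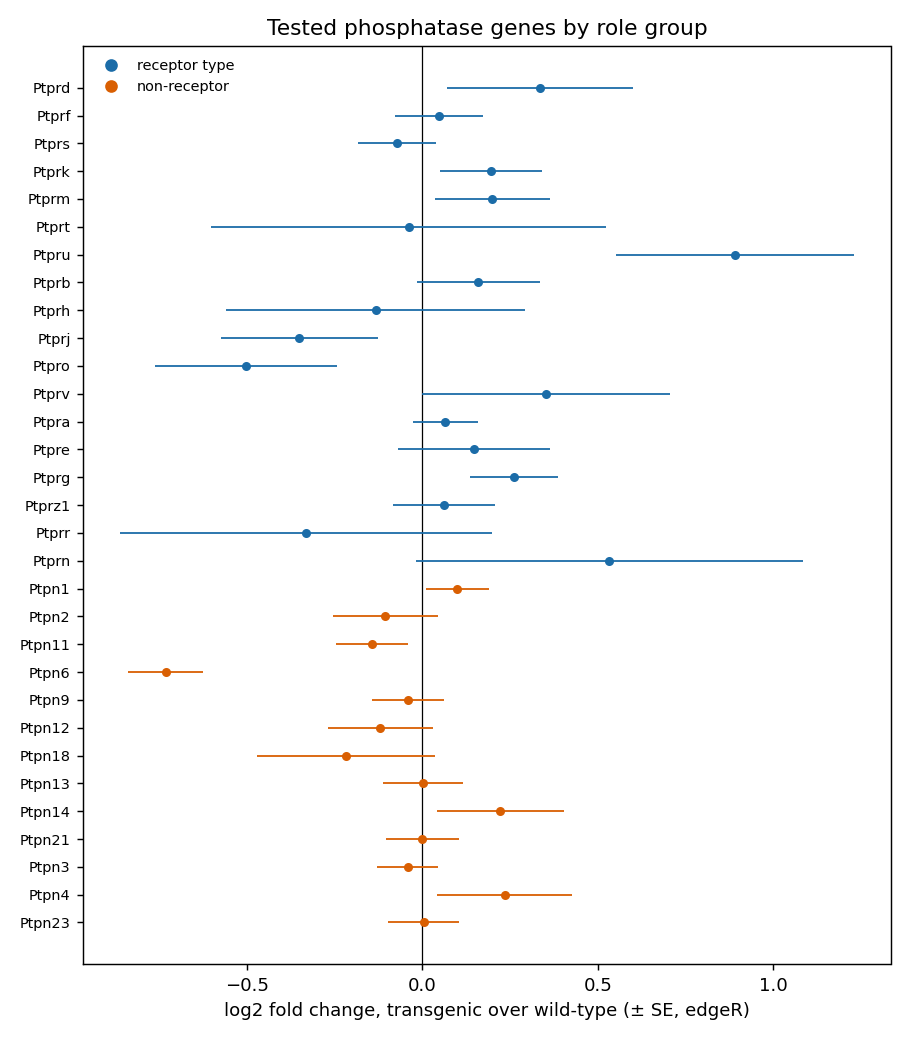
Points give the log2 fold change, transgenic over wild-type, of the 31 tested genes with bars of 1 SE from edgeR, ordered by role group from receptor to non-receptor types. Ptpn6 at -0.73 lies apart from the other non-receptor genes; among receptor types Ptpru is highest at 0.89 and Ptpro lowest at -0.50, both with wide bars.

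Ptpn11, the SH2 relative of Ptpn6, encodes SHP-2, which carries growth-factor signals forward. It had 211 and 179 CPM in transgenic corneas 1 and 2, against 208, 219.97 and 218 CPM in the wild-type corneas, and the groups overlapped (log2 fold change -0.14 ± 0.10, adjusted p = 0.860 by edgeR). Ptpn1, the PTP1B phosphatase of the endoplasmic reticulum that acts on the insulin receptor, had 197 and 186 CPM in transgenic corneas, against 177, 177 and 181 CPM in wild-type corneas. Both transgenic values were above the wild-type range, by a small margin (0.10 ± 0.09, adjusted p = 0.878 by edgeR). Its relative Ptpn2, which acts on JAK kinases and STAT factors, had 19.0 and 19.8 CPM in transgenic corneas and 19.6, 24.7 and 18.4 CPM in wild-type corneas.

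Among the members with a FERM domain, which links membrane proteins to the cytoskeleton, Ptpn3 had 69.6 and 68.5 CPM in transgenic corneas, against 72.5, 69.7 and 70.9 CPM in wild-type corneas. Both transgenic values were lower, by less than 1 wild-type SD at the nearest (log2 fold change -0.04 ± 0.09, adjusted p = 0.957 by edgeR). Ptpn13 averaged 373 ± 20.8 CPM in transgenic corneas (SD, n = 2) and 373 ± 38.3 CPM in wild-type corneas (SD, n = 3). Ptpn14, which binds the growth regulator YAP, averaged 41.8 ± 2.49 CPM in transgenic corneas and 35.8 ± 7.91 CPM in wild-type corneas. Ptpn4 and Ptpn21 also overlapped between genotypes. So did Ptpn9 of secretory vesicles, Ptpn12 and Ptpn18 of the PEST group and Ptpn23, which sorts receptors in endosomes, with 66.5 and 58.1 CPM in transgenic corneas and 63.7, 58.6 and 64.1 CPM in wild-type corneas.

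The LAR group of receptor types, adhesion molecules of epithelia and neurons, includes Ptprf, which had 1155 and 1112 CPM in transgenic corneas and 1127, 943 and 1220.3 CPM in wild-type corneas (log2 fold change 0.05 ± 0.12). Ptprs averaged 134 ± 8.22 CPM in transgenic corneas (SD, n = 2) and 141 ± 15.4 CPM in wild-type corneas (SD, n = 3). Ptprd was uneven within a genotype, with 75.1 and 125 CPM in transgenic corneas 1 and 2, against 66.2, 96.1 and 75.4 CPM in wild-type corneas 1 to 3. Its log2 fold change of 0.34 ± 0.27 was -0.07 without transgenic cornea 2.

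Among the adhesive receptors that bind their own kind on the next cell, Ptpru had 3.86 and 7.04 CPM in transgenic corneas 1 and 2, against 3.25, 1.96 and 3.60 CPM in wild-type corneas 1 to 3. Both transgenic values were higher, transgenic cornea 1 only just so. The log2 fold change was 0.89 ± 0.34 (adjusted p = 0.731 by edgeR), and 0.39 without transgenic cornea 2. Ptprk had 14.3 and 14.5 CPM in transgenic corneas, against 12.7, 11.3 and 13.9 CPM in wild-type corneas (0.20 ± 0.15, adjusted p = 0.861 by edgeR). Ptprm averaged 18.5 ± 1.04 CPM in transgenic corneas (SD, n = 2) and 16.1 ± 2.81 CPM in wild-type corneas (SD, n = 3), with overlap.

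Ptprg and Ptprz1 carry a carbonic anhydrase-like domain outside the cell. Ptprg had 58.1 and 57.0 CPM in transgenic corneas, against 45.9, 42.1 and 56.1 CPM in wild-type corneas, so wild-type cornea 3 came close to the transgenic values (log2 fold change 0.26 ± 0.13, adjusted p = 0.812 by edgeR). Ptprz1, a receptor for pleiotrophin, had 165 and 133 CPM in transgenic corneas and 125, 137 and 167 CPM in wild-type corneas and overlapped. The Src activators Ptpra and Ptpre averaged 57.6 ± 1.77 and 7.59 ± 0.655 CPM in transgenic corneas (SD, n = 2), against 55.1 ± 2.33 and 6.83 ± 1.47 CPM in wild-type corneas (SD, n = 3).

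In the group of receptors with fibronectin repeats outside and a single catalytic domain inside, Ptpro and Ptprj were both low in transgenic cornea 2. Ptprj, the CD148 phosphatase, had 58.7 and 33.7 CPM in transgenic corneas 1 and 2, against 59.3, 59.5 and 57.6 CPM in wild-type corneas 1 to 3. Transgenic cornea 1 lay within the wild-type range and transgenic cornea 2 far below it. The log2 fold change was -0.35 ± 0.22 (adjusted p = 0.860 by edgeR), -0.80 without transgenic cornea 1 (adjusted p = 0.0437 by edgeR), and 2.2e-05 without transgenic cornea 2. Each value with a transgenic cornea left out rests on 1 transgenic library, which is assumed to vary as the wild-type libraries do. The call without transgenic cornea 1 is thus that of the low library alone.

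Ptpro, known as the podocyte phosphatase GLEPP1, had 106 and 63.0 CPM in transgenic corneas 1 and 2, against 124, 137 and 98.4 CPM in wild-type corneas 1 to 3. Transgenic cornea 2 was again the lowest and transgenic cornea 1 lay within the wild-type range (log2 fold change -0.50 ± 0.26, adjusted p = 0.835 by edgeR, and -0.17 without transgenic cornea 2). Ptprb, the VE-PTP of blood vessel endothelium, averaged 17.0 ± 1.58 CPM in transgenic corneas (SD, n = 2) and 15.2 ± 3.07 CPM in wild-type corneas (SD, n = 3), with overlap.

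**Figure D4:**
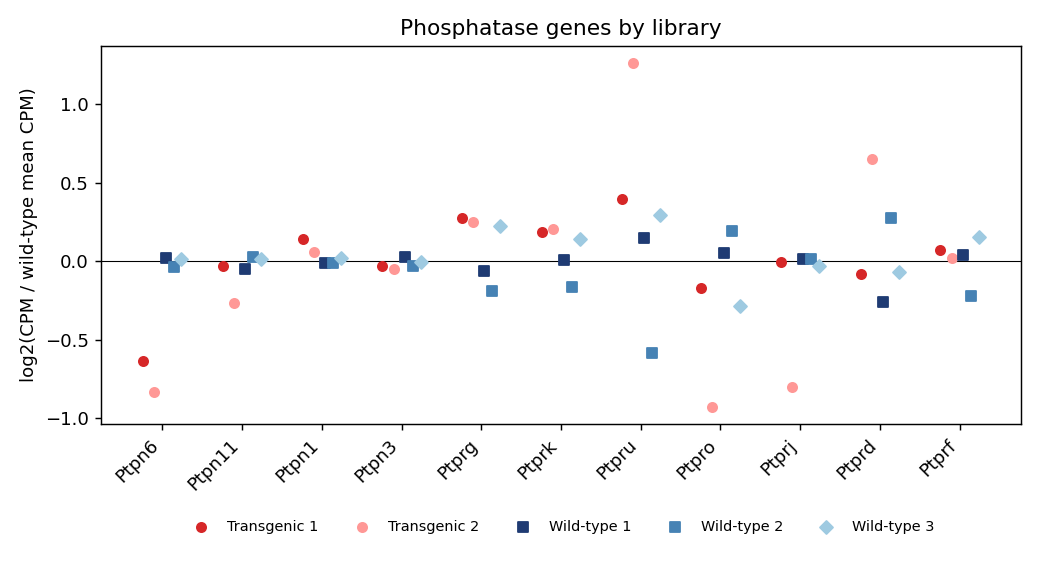
Each point is the log2 ratio of a library's CPM to the wild-type mean CPM of that gene, transgenic corneas in red at the left of each gene and wild-type corneas in blue at the right. Ptpn6 has both red points well below a tight blue group, while Ptpro, Ptprj and Ptprd are set apart by transgenic cornea 2 alone.

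The remaining genes had few counts. Ptprh, Ptprr and Ptprv had between 0.573 and 2.20 CPM in every library, and Ptprt and Ptprn under 1 CPM. The neuroendocrine vesicle protein Ptprn2 and the MAP kinase phosphatase Ptpn7 did not pass the filter. Neither did Ptpn20, Ptprcap or Ptpn22, a phosphatase of lymphoid cells, and no member that failed it exceeded 0.433 CPM in any library. Ptpn22 had 0 and 3 counts in transgenic corneas and 9, 4 and 6 counts in wild-type corneas. RefSeq lists another gene over 22 of the 38 members in GRCr8, Ptpn6 not among them. Strand use in library preparation and counting is not stated, so reads of those 22 genes and of an overlapping gene may not be told apart.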

How the data were processed

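RNA was sequenced from 2 transgenic and 3 wild-type rat corneas. The authors deposited expected counts (estimated counts) per gene and per isoform, not normalized; per the submitters' processing notes, RSEM 1.2.28 and STAR 2.5.3a are among the tools used before deposit. Those notes also list edgeR 3.28.0, DESeq2 1.26.0, fastp, FastQC and build rn6, with no role or order. Reads shared by isoforms are divided by estimation, so isoform values are less certain than gene values. Expected counts were rounded, filtered by filterByExpr (minimum count 10), scaled by TMM and tested with edgeR 4.0.16 (quasi-likelihood F test, robust, two-sided) in R 4.3.3, with Benjamini-Hochberg adjustment over all genes or isoforms tested and a threshold of 0.05. Each SE is the absolute log2 fold change over the root of its F statistic. CPM uses TMM library sizes. DESeq2 1.42.0 and limma 3.58.1 voom were alternatives. The procedure was tested on simulated data. Its recovery of small differences is not given here, so the lack of a call does not show that a gene was unchanged. Members and lists were chosen with earlier results of these data known. Given in full are Ptpn6, Ptpn11 and members of at least 1 CPM whose groups did not overlap; Ptpro, Ptprj, Ptprd, Ptprf and others were chosen after their values were seen. Transcript lengths were not used here, so no order of levels was drawn. Promoters come from RefSeq, GRCr8; all 38 symbols matched.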

Additional observations from a re-analysis of the deposited data

How the results depend on the processing

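The count of genes past the threshold was 1 with edgeR and TMM (NR3C2), 2 with no filter on low counts, 52 with DESeq2, 16 with the replicate number as a block, and between 2 and 36 with each library left out in turn. For isoforms it was 0, and 209 with DESeq2. Among the phosphatase genes it was 0, 1 with DESeq2 (Ptpn6), and between 0 and 2 with each library left out; the 2 were Ptpn6 and Ptprj without transgenic cornea 1, where the lone transgenic library is assumed to vary as the wild-type ones do. Among their isoform rows it was 0, and 1 with DESeq2 (ENSRNOT00000117641). Calls of Ptpn6 and its rows only describe how the counts depend on the tool, since Ptpn6 was chosen for its difference in this comparison. With the replicate block no phosphatase gene was called, and 2 pairs (r = 0.00066 and -0.105) are too few to show that the numbers pair the libraries. Without transgenic cornea 2 the log2 fold change of Ptprj all but vanished (2.2e-05) and that of Ptprd changed sign (-0.0748). Over the libraries left out, the ranges were -0.80 to 2.2e-05 for Ptprj and -0.0748 to 0.65 for Ptprd. The fold changes of Ptpn6 and of its rows ENSRNOT00000117641 and ENSRNOT00000102617 kept their direction in all 10 alternatives. That is a description only, since Ptpn6 was chosen for its difference. Their genotypes did not overlap, so leaving out a library could hardly reverse the direction. Ptpn6 relative to leukocyte markers was -0.80 with the mean of log2(CPM + 0.5) in place of -0.90. With 2 transgenic corneas, 1 library can decide a value, and members under 1 CPM rest on few reads.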
